A study of Mus musculus with 9 samples.

Results

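Runs of 5 neighbouring CpGs spaced 8, 2, 16 and 8 bp apart recur across the mouse genome, and 1227 of them were followed here in embryos made by nuclear transfer (NT) and in the fibroblasts that serve as donors. They were found by position: CpGs with at least 5 calls in 5 or more of 9 libraries were sorted, and stretches with these gaps, or with the mirror order 8, 16, 2, 8 on the other strand, were taken when they held at least 10 calls in each of 8 samples. Of 1234 stretches with the spacing, 1227 met that minimum, 599 forward and 628 mirrored, out of 1248363 windows of 5 neighbouring CpGs with the same depth (0.0983%). The spacing itself had been chosen by measured values, because earlier results on these data showed that its mean level differed little between the stages while most methylated windows were lower in NT embryos. The comparison of stages is therefore given as a description, with no test. The 7 stretches left out had 0 to 8 calls in their thinnest sample, while the thinnest runs kept had 10, 10 and 13 calls. Of those 7, the stretches with 4, 8 and 8 calls in their thinnest sample lay at 88.2, 93.3 and 85.0% in NT embryos. The others had 0 calls in some sample, so no level over all samples is given for them. The 3 thinnest runs kept lay at 94.8, 89.1 and 61.8% in NT embryos.

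CpG methylation is a chemical mark on cytosine that is copied after DNA replication by the maintenance enzyme DNMT1 and is removed by TET oxidation or by dilution. In the mouse zygote much of the genome loses the mark, while imprinted regions and some repeated elements, of which intracisternal A particles are the standard example, hold it. A spacing of CpGs that returns so often is a property of repeated DNA. Among mouse repeats, the promoters of L1 elements are built from short units repeated head to tail. No repeat annotation of the build of the files was used, so the runs are not assigned to a repeat class here.

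Libraries for reduced representation bisulfite sequencing hold DNA that is cut by MspI at CCGG and size-selected. It is treated with bisulfite, which changes unmethylated cytosines and leaves methylated ones unchanged. Each CpG gets a number of calls and of methylated calls. Whether oxidised forms of the mark are among the methylated calls was not tested. The NT embryos (label NTZy14) comprised 4 samples, numbers 1 and 2 of strain BDF1-CAST and numbers 3 and 4 of strain X1. They were made by moving a fibroblast nucleus into an enucleated C57/B6 oocyte, whose polar body was biopsied, followed by activation in SrCl2 with cytochalasin B, culture in KSOM and removal of the zona. The fibroblasts (label TT) comprised 4 samples with the same strains and numbers, grown from tail tips of adult males to confluence in serum medium; fibroblast 1 was sequenced as 2 libraries that were summed. The meaning of the digits in NTZy14 and of the name X1, and the number of embryos in a library, were not stated in the sources used. Whether samples stem from different animals or cultures is not stated, so p-values measure only sample-to-sample spread, part of which may be technical. The whole libraries held 25239364 to 30396273 calls in NT embryos and 35442175 to 41466097 in fibroblasts, and the runs themselves 98693 to 148659 calls in NT embryos and 128080 to 269240 in fibroblasts. Calls from 1 fragment are not independent molecules, and reads from copies of a repeat can be placed at the wrong copy. How such reads were treated is not given in the sources used here, so a level at 1 position may hold reads of several.

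To show what DNA with this spacing looks like, the RefSeq promoter windows of build GRCm38.p6, 250 bases before to 50 after each gene's start, were searched on both strands for CG dinucleotides with gaps of 8, 2, 16 and 8 and no CG between them. Of 32851 windows, 4 held it (0.0122%), at Gm5636, Gm30645, Gm42298 and 4930590L20Rik. The files are on build mm9, so these windows are examples of the spacing and were not matched to runs by coordinate. A 206-base stretch before Gm5636 and shorter stretches before Gm30645 and Gm42298 are printed 5′ to 3′ on the strand where the gaps read 8, 2, 16, 8. The capitals mark the 5 CpGs.
Gm5636, GRCm38.p6 chrX:47436584-47436789, plus strand: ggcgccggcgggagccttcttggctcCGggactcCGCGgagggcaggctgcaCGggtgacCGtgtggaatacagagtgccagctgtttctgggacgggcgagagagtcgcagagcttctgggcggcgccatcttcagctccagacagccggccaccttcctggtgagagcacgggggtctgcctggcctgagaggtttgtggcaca
Gm30645, GRCm38.p6 chr7:10471317-10471379, plus strand: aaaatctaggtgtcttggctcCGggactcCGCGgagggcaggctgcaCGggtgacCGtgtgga
Gm42298, GRCm38.p6 chr4:71381726-71381788, minus strand: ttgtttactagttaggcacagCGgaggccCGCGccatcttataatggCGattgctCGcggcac
In the Gm5636 and Gm30645 windows the first CpG lies in a CCGG, the site MspI cuts, and the letters between the 5 CpGs are the same. The Gm42298 stretch has the same gaps with other letters, and none of its 5 CpGs lies in a CCGG. The whole Gm5636 window compared with itself at a shift of 206 bp had the same base at 98.9% of 94 positions, which is a unit repeated head to tail.

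The CpGs around the runs recur at certain distances, some of which are also found in the Gm5636 window. With place 1 as the first CpG and distances counted along the run, a CpG 24 bp before place 1 was listed in 921 of 1227 runs (75.1%) and a CpG 21 bp before it in 887 (72.3%). Both were present in 879 runs (71.6%). The Gm5636 window has CpGs at both of these positions, at -84 bp, counted from place 1, a position listed in 378 runs (30.8%), and at 122 bp, listed in 360 runs (29.3%). Its CpGs at -84, -21, 0 and 122 bp each lie in a CCGG. Other CpGs of that window were listed beside fewer runs. That at -61 bp was listed in 187 runs (15.2%), and those at 96, -107 and 99 bp in 64, 63 and 55. That at -18 bp was listed in 46 runs, at 68 bp in 14, at 145 bp in 4, at 72 bp in 2 and at 81 bp in 0. The CpGs of the Gm42298 window at -31 and 45 bp were listed in 0 runs, that at 36 bp in 2 and that at -110 bp, which the Gm5636 window also has, in 67. The side after the run varied more than the side before it, with the next listed CpG 88 bp after place 5 in 293 runs (23.9%) and 148 bp after it in 179 (14.6%). A match of position is a description and does not place a run in either window.

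The runs were mostly members of rows of copies. Joined where they lay within 500 bp of each other, the 1227 runs formed 504 separate places, of which 210 held 1 run and 294 held 2 to 12, all of a place in 1 orientation. Of 723 neighbouring pairs within 500 bp, 405 were 206 bp apart, 154 were 205 bp and 127 were 204 bp apart, together 94.9%. A further 27 pairs were 408 to 412 bp apart, the length of 2 units. The longest row, on chromosome X at 114200863 to 114203365 (mm9), held 12 forward runs over 2502 bp, with a mean of 89.4% in NT embryos and 88.2% in fibroblasts. Its 12 copies ran between 84.0 and 91.8% in NT embryos and between 84.5 and 91.3% in fibroblasts.

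**Figure D1:**
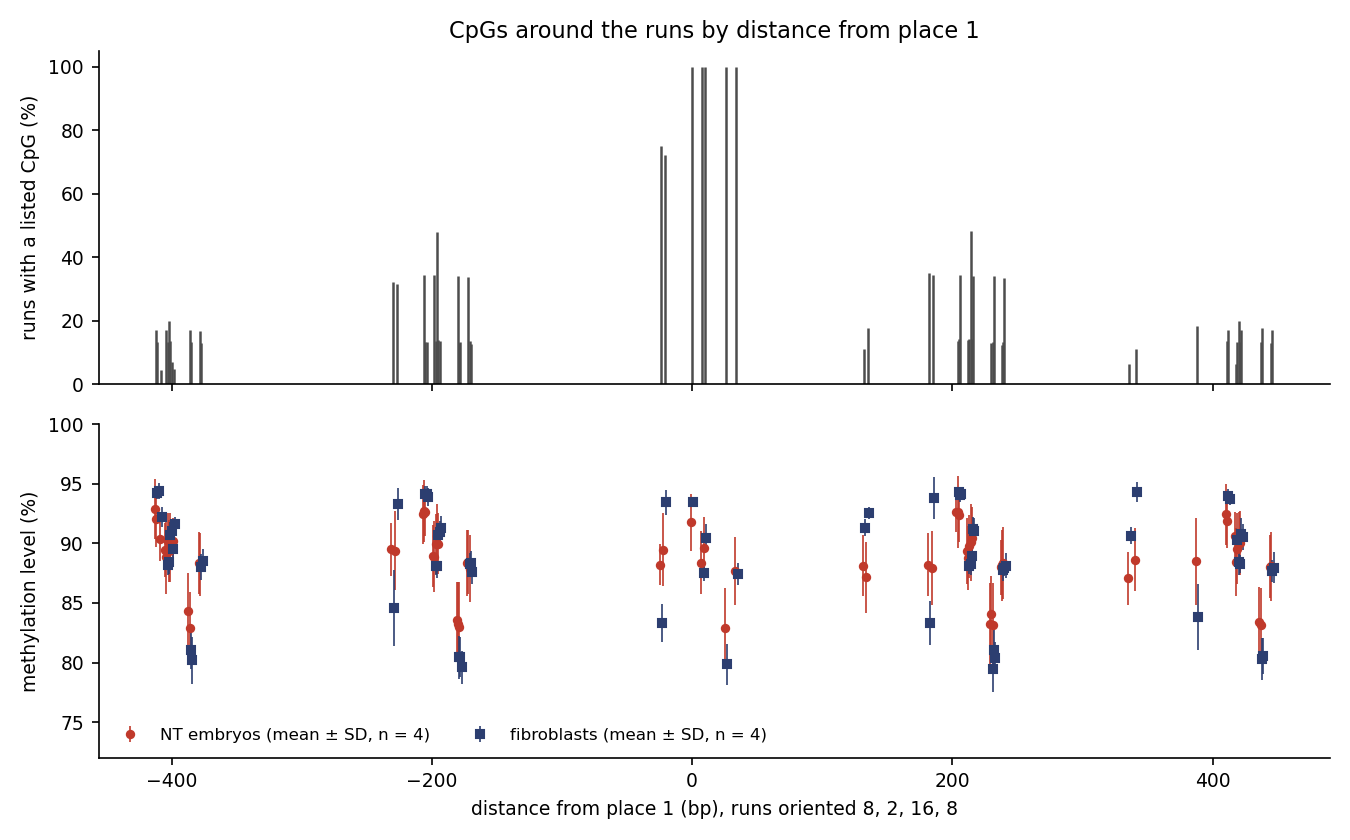
The upper panel plots the share of the 1227 runs (%) with a listed CpG at each distance from place 1 (bp), and the lower panel the methylation level (%) at that distance in NT embryos and fibroblasts as mean ± SD over 4 samples each. Only distances listed in at least 50 runs and measured with at least 5 calls per sample in at least 50 are drawn. The pattern of the 5 places returns at about 206 and 412 bp on either side, with place 4 near 80% in fibroblasts each time. CpGs of neighbouring runs are included, so these repeats are largely the same CpGs counted from another run.

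The 5 CpGs of a run were not methylated alike, and their order was the same in all 8 samples at both ends. Place 1 was the highest and place 4, 26 bp further on, the lowest. Place 1 averaged 91.8% ± 2.37 in NT embryos and 93.5% ± 0.426 in fibroblasts (SD, n = 4 each). Place 4 averaged 82.9% ± 3.32 in NT embryos and 79.8% ± 1.69 in fibroblasts. The 3 other places lay between them. Place 2 averaged 88.4% in NT embryos and 87.5% in fibroblasts, place 3 89.6% in NT embryos and 90.5% in fibroblasts, and place 5 87.7% in NT embryos and 87.5% in fibroblasts.

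Each place was set against the mean of the other 4 within every sample, in a two-sided exact sign-flip permutation test over 8 samples, with Benjamini-Hochberg adjustment over the 5 places. Place 1 stood 5.90 points above the other places, higher in 8 of 8 samples (3.99 to 7.56 points, exact permutation p = 0.00781, the smallest the test can give, adjusted p = 0.00977). Place 3 stood 2.67 points above (1.68 to 5.18 points) and place 4 at -8.17 points (-11.7 to -5.54 points), lower in 8 of 8, both with the same p and adjusted p. Place 5 lay at -0.425 points, lower in 8 of 8 samples (exact permutation, adjusted p = 0.00977). Place 2 differed from the others by 0.0270 points, with 4 of 8 samples above 0 (adjusted p = 0.859), so no difference was detectable for it. Place 4 was the lowest of the 5 in 879 runs (71.6%) in NT embryos and in 1098 runs (89.5%) in fibroblasts. Place 1 had more calls than the other places, 23.1 a sample against 19.5 to 19.6 in NT embryos and 29.4 against 27.7 to 28.1 in fibroblasts, and the part of depth in its level was not tested.

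**Figure D2:**
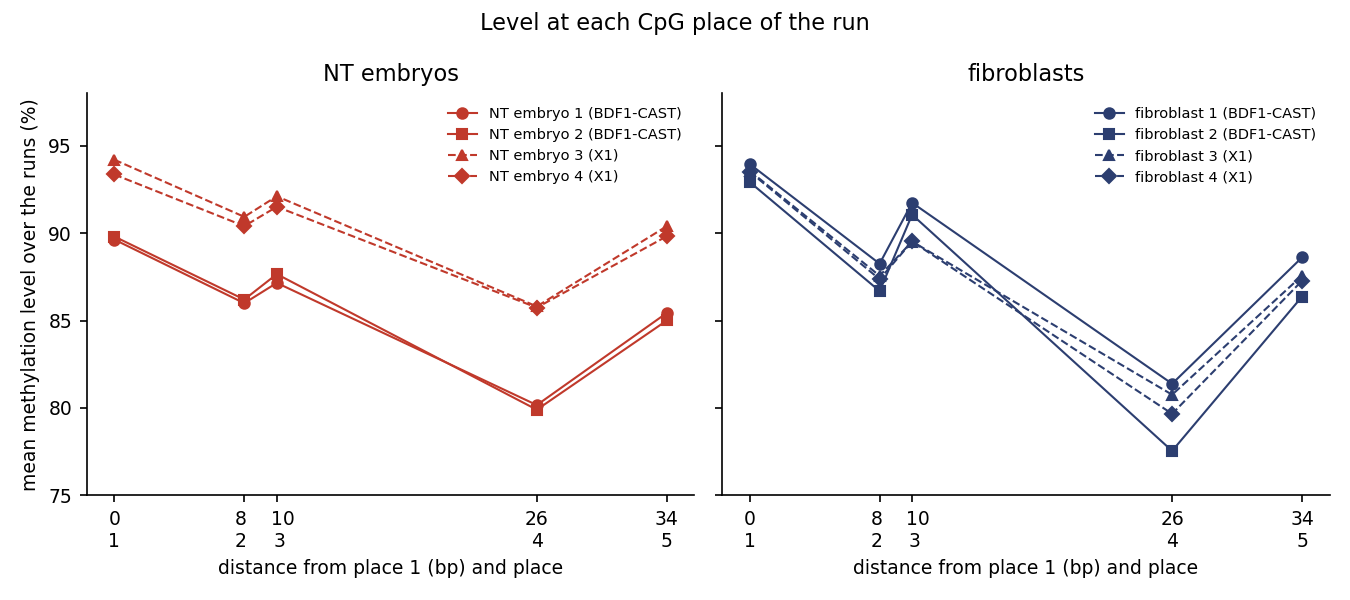
Mean methylation level (%) over the runs at each of the 5 CpG places, plotted at its distance from place 1 (bp), with 1 line for each NT embryo (left) and each fibroblast sample (right). Place 4 is the lowest point of all 8 lines, and the NT embryos of the 2 strains stand apart at every place.

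The places lay closer together in NT embryos than in fibroblasts. The level at place 1 minus that at place 4 was 9.48, 9.91, 8.40 and 7.62 points in NT embryos 1 to 4, against 12.6, 15.4, 12.8 and 13.9 points in fibroblasts 1 to 4. Every NT embryo lay below every fibroblast sample, in both strains. The means were 8.85 points ± 1.04 in NT embryos and 13.7 points ± 1.28 in fibroblasts. Place 3 minus place 2, CpGs 2 bp apart, showed the same, with 1.11 to 1.46 points in NT embryos and 1.96 to 4.37 points in fibroblasts. NT embryo minus fibroblast at place 1 was 0.633 and -0.163 points in the X1 pairs 3 and 4, and -4.33 and -3.12 points in the BDF1-CAST pairs 1 and 2. At place 4 it was 5.05 and 6.08 points in pairs 3 and 4, and -1.22 and 2.36 points in pairs 1 and 2. The lower level at place 1 was thus found in BDF1-CAST, and the higher level at place 4 mainly in X1. These are differences between the stages in runs chosen on that contrast, and carry no test.

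Averaged over the 5 places and all runs, the level was 85.8, 85.8, 90.7 and 90.2% in NT embryos 1 to 4, against 88.8, 87.0, 87.8 and 87.5% in fibroblasts 1 to 4. The fibroblasts lay within 2 points of each other, and the NT embryos split by strain, with BDF1-CAST below all fibroblasts and X1 above them. The means were 88.1% ± 2.73 in NT embryos and 87.8% ± 0.780 in fibroblasts, a difference of 0.347 points. That mean difference joins opposite differences in the strains. NT embryo minus fibroblast was 2.91 and 2.76 points in pairs 3 and 4 of strain X1, with a mean of 2.83 points, and -3.08 and -1.20 points in pairs 1 and 2 of BDF1-CAST, with a mean of -2.14 points.

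The X1 difference minus the BDF1-CAST difference was 4.97 points. An exact permutation of the strain label over the 4 pairs gave p = 0.333, the smallest that 2 pairs against 2 can give, so the design cannot reach 0.05. The same quantity had a median of 4.92 points over the runs and 4.77 points over the 310953 other windows at 80% or more in fibroblasts, so its size was not particular to the runs. In the quasi-binomial model of the stage by strain term, 0 of 1248363 windows were called (0.0%), and 116684 (9.35%) had an unadjusted p under 0.05. Of the runs, 0 were called and 123 (10.02%) had an unadjusted p under 0.05, all 123 with the higher difference in X1. Other windows leaned the same way. The difference was higher in X1 in 79133 of the 116684, and in 24609 of 31085 such windows at 80% or more in fibroblasts. Among those at 80% or more that spanned at most 34 bp it was higher in X1 in 746 of 817. With limma on arcsine square root levels the call was also 0.

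Strain by itself showed no difference past the threshold. Over both stages the runs averaged 89.1% ± 1.65 in X1 and 86.8% ± 1.45 in BDF1-CAST (SD, n = 4 each), a difference of 2.23 points (two-sided exact permutation p = 0.114 over 70 assignments, of which the smallest possible is 0.0286). X1 minus BDF1-CAST was 4.72 points in NT embryos and -0.253 points in fibroblasts. In the window model with limma-moderated dispersion, 655 of 1248363 windows (0.0525%) were called between strains at an adjusted p under 0.05 and at least 20 points, and 0 of the runs were. At an unadjusted p under 0.05 the count was 225532 windows (18.1%) and 69 runs (5.62%). Of these, 152425 windows and 63 runs were higher in X1. Among windows at 80% or more in fibroblasts that spanned at most 34 bp, 1043 of 1123 were. The count of 655 was 0 when any of the 8 samples, or the second library of fibroblast 1, was left out. Of the window calls between stages, 113336 (9.08%) of all windows and 0 of the runs, nothing is read, since the runs were chosen on that contrast.

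The CpGs just outside the run differed between the stages in opposite directions although they lie 3 bp apart. At 24 bp before place 1 the level was 85.8, 89.2, 89.7 and 88.2% in NT embryos 1 to 4, with a mean of 88.2% ± 1.73, against 83.3% ± 1.59 in fibroblasts, in the 188 runs with at least 5 calls there in each sample. At 21 bp before place 1, in 155 runs, it was 85.4, 90.4, 92.7 and 89.5% in NT embryos 1 to 4, with a mean of 89.5% ± 3.04, against 93.4% ± 1.08 in fibroblasts. In fibroblasts the nearer CpG was the higher by about 10 points, and in NT embryos the 2 were nearly level. NT embryos differed from fibroblasts by 4.87 points at the first and by -3.96 points at the second. With the calls of every listed CpG pooled, whatever its depth, the differences were 5.80 and -4.89 points, so they do not rest on the minimum of 5 calls. The positions 182 and 185 bp after place 1, where the next unit has this pair, gave 4.88 and -5.84 points in 80 runs each. They are largely the same CpGs, counted from the run before.

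Between the 2 units lay a CpG at 135 bp, with 87.2% ± 2.98 in NT embryos and 92.6% ± 0.521 in fibroblasts over 201 runs, and its repeat at 341 bp, with 88.6% ± 2.65 in NT embryos and 94.3% ± 0.835 in fibroblasts over 134 runs. At both, all 4 same-numbered pairs were lower in the NT embryo. Where the next run lies 206 bp on, the CpG at 341 bp is that run's CpG at 135 bp, so the 2 positions are not separate cases. The direction depended on the strain at places 2, 3 and 5, where both BDF1-CAST pairs were lower and both X1 pairs higher in the NT embryo. Place 3 differed by 2.29 points in X1 and by -3.996 points in BDF1-CAST. At -24 bp all 4 pairs were higher in the NT embryo, by 2.38 to 7.34 points. The CpG at -21 bp differed by -9.30, -3.44, 0.537 and -3.66 points in pairs 1 to 4. In NT embryos the means over both strains of the positions -24, -21, 0, 8, 10, 26 and 34 bp ran between 82.9 and 91.8%, and in fibroblasts between 79.8 and 93.5%.

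**Figure D3:**
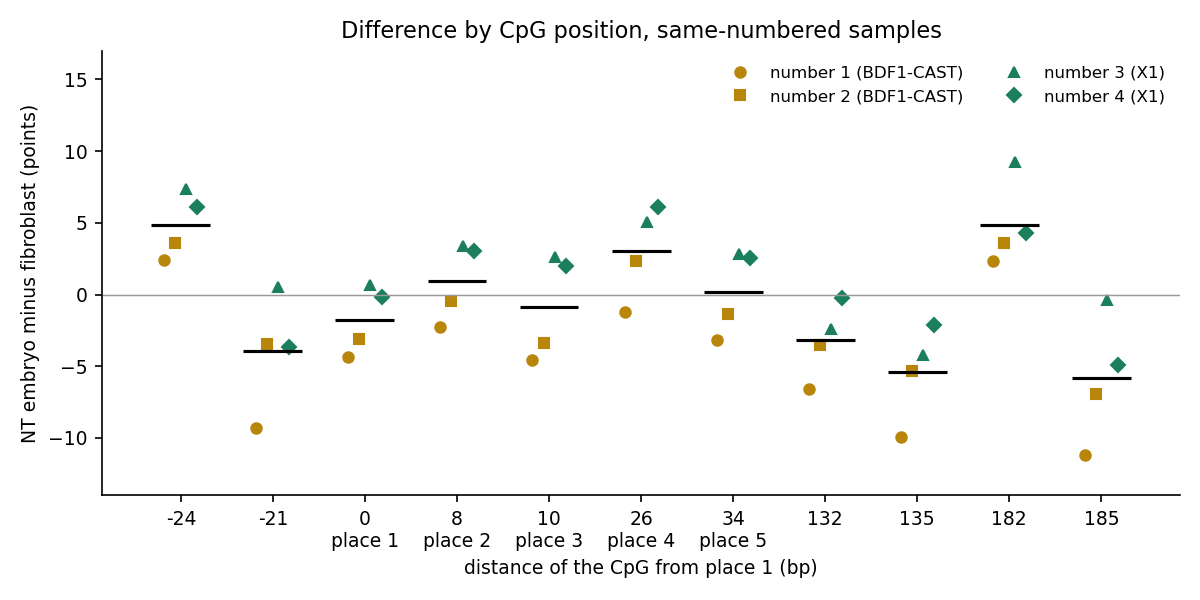
NT embryo minus fibroblast methylation level (points) for each same-numbered pair (symbols, BDF1-CAST and X1 in 2 colours) and the mean of 4 pairs (bar) at CpGs from 24 bp before to 185 bp after place 1. The pairs at -24 and 182 bp all lie above 0 and those at 132, 135 and 185 bp all below it, while the 5 places of the run lie on both sides.

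Wider flanks were taken over CpGs that belong to no other run and had at least 5 calls in each sample, each run counting once per distance class. Counting CpGs of other runs too, 1223 runs had at least 1 listed CpG within 500 bp, and 6717 of 10567 such CpGs passed the depth minimum. Of the 10567, 5085 belonged to other runs and were left out of the means that follow. After place 5 the CpGs at 25 to 100 bp averaged 86.2% ± 2.91 in NT embryos and 89.1% ± 0.776 in fibroblasts (150 runs). At 100 to 250 bp they averaged 86.9% ± 2.71 in NT embryos and 89.3% ± 0.308 in fibroblasts (419 runs), and at 250 to 500 bp 87.4% ± 2.29 in NT embryos and 90.5% ± 0.350 in fibroblasts (395 runs). In the outer 2 classes every NT embryo lay below every fibroblast sample. On the side before place 1 the stages overlapped. There the CpGs at 100 to 250 bp averaged 84.6% ± 2.19 in NT embryos and 83.8% ± 0.503 in fibroblasts (208 runs), and those at 250 to 500 bp 83.4% ± 2.56 in NT embryos and 83.0% ± 0.701 in fibroblasts (160 runs). The 2 sides were measured in different sets of runs. In fibroblasts the runs behind these 2 classes averaged 84.9 and 84.6%, and those behind the same distances after place 5 averaged 86.8 and 87.1%. Only 23 runs had a CpG at 25 to 100 bp before place 1 that passed the minimum, at 56.4% in NT embryos and 57.3% in fibroblasts. These 23 runs were themselves low, at 66.4% in NT embryos and 65.0% in fibroblasts, so this class does not describe the flank of a typical run.

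**Figure D4:**
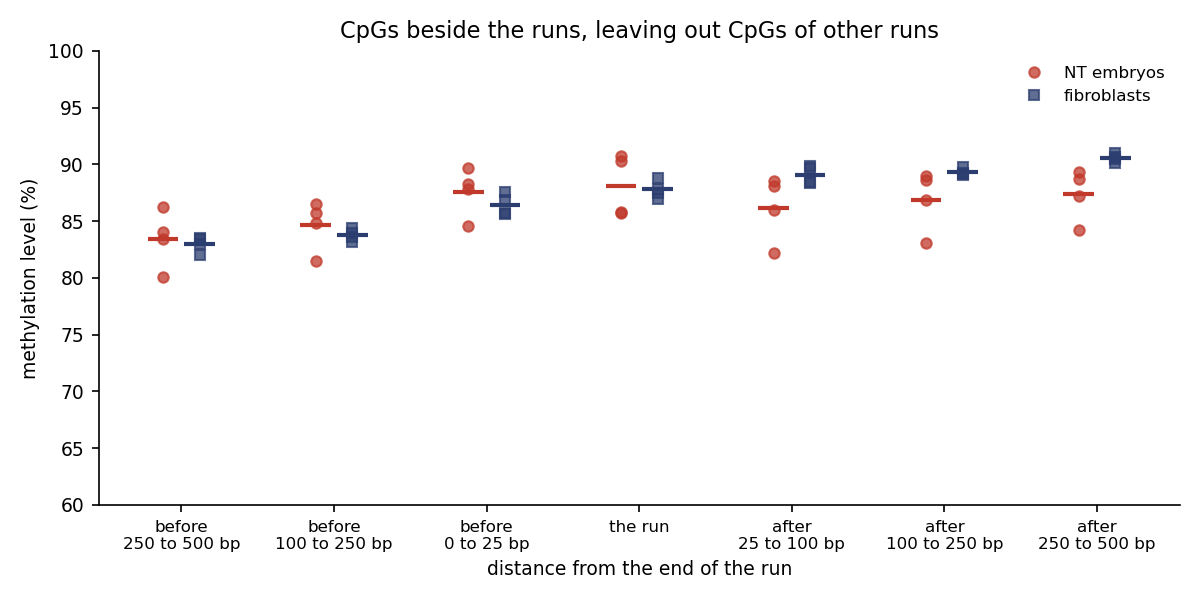
Methylation level (%) of each NT embryo and each fibroblast sample (symbols, with the mean as a bar) at CpGs beside the runs, by distance from the run's end (bp), and in the run itself. After the run NT embryos lie mostly below fibroblasts, at 87.4 against 90.5% at 250 to 500 bp, and before it the groups overlap.

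Most copies of the run stood at nearly the same level. The mean of 4 samples was 80% or more in 1210 runs in NT embryos and in 1209 runs in fibroblasts. The middle 90% of runs lay between 84.0 and 92.8% in NT embryos and between 84.7 and 91.5% in fibroblasts. The difference between the stages had a median of 0.430 points over runs and an SD of 3.08 points, ran from -12.9 to 10.9 points, and was within 10 points in 1222 runs (99.6%). No run differed by 20 points or more in either direction. Both BDF1-CAST pairs were lower and both X1 pairs higher in 231 runs, and the reverse held in 14.

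A second kind of run stood apart from these. In 9 runs the level was 0 to 4.28% in the mean of NT embryos and 0 to 3.70% in that of fibroblasts, with 23 to 636 calls a sample. None of the 9 had both CpGs at 24 and 21 bp, none had another run within 500 bp, and 14 to 69 CpGs were listed within 500 bp of each. They lay on chromosomes 1, 2, 5, 9, 10, 11, 14 and 19, with 2 on chromosome 2. These runs share the spacing but not the pair of CpGs before it. Neither the lack of the pair nor that of a neighbour was particular to them. Of the other 1218 runs, 339 also lacked the pair, with 88.6% in NT embryos and 88.2% in fibroblasts, and 201 had no other run within 500 bp.

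Without the 9, the spread between copies was 4.13 to 5.77 points (SD over 1218 runs) in each NT embryo and 2.75 to 4.45 points in each fibroblast sample. Counting error of independent calls would give 2.86 to 3.68 points in NT embryos and 2.13 to 3.23 points in fibroblasts. The level of a copy in 1 sample hardly followed its level in another: over the 28 pairs of samples Pearson's r across the 1218 runs lay between 0.0159 and 0.143, and Spearman's rho between -0.0172 and 0.0944. The points are copies of similar sequence in samples that share a pipeline, and carry no p. Runs alone within 500 bp averaged 88.6% in NT embryos and 88.0% in fibroblasts, and those in rows of 5 or more 88.9% in NT embryos and 88.6% in fibroblasts. The first, inner and last copies of rows of 3 or more lay at 88.8, 88.8 and 88.9% in NT embryos and at 88.7, 88.5 and 88.5% in fibroblasts, so the place of a copy in its row made less difference than the spread between samples.

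**Figure D5:**
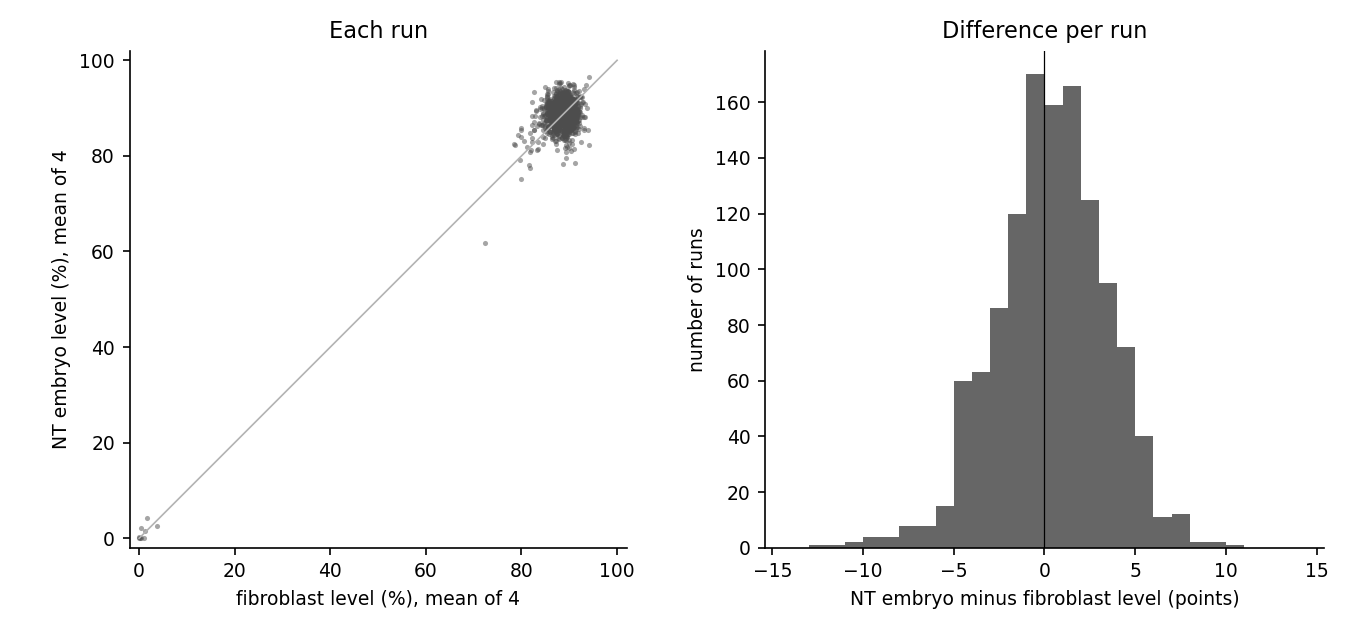
Left, the mean methylation level (%) of each of the 1227 runs over 4 NT embryos against that over 4 fibroblast samples, with the line of equal levels. Right, the number of runs by NT embryo minus fibroblast level (points). The runs form 1 cloud near 88% and a group of 9 below 5%, and the differences lie between -12.9 and 10.9 points.

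Chromosome and strand were not used by the rule. Chromosome X held 171 runs (13.9%), against 3.92% of all windows and 7.73% of windows at 80% or more in fibroblasts. Runs on X averaged 88.8% ± 2.78 in NT embryos and 88.5% ± 0.734 in fibroblasts, and those on autosomes 88.0% ± 2.72 in NT embryos and 87.7% ± 0.795 in fibroblasts. X minus autosomes was 0.770 points, higher in 8 of 8 samples (two-sided exact sign-flip permutation p = 0.00781, the smallest possible). The 9 runs near 0 are all autosomal, and without them the difference was 0.0241 points (exact permutation p = 0.844), so it rests on them. Mirrored minus forward runs differed by -0.223 points, with 2 of 8 samples above 0 (exact permutation p = 0.172).

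Single copies with at least 30 calls in each sample are named at their mm9 positions. The copy with the largest fall, on chromosome 12 at 98800302 to 98800336, was at 58.3, 94.0, 76.4 and 85.0% in NT embryos 1 to 4, against 91.6, 95.6, 88.9 and 89.1% in fibroblasts 1 to 4. NT embryo 2 lay within the fibroblast range, so the groups overlap. The copy with the second largest fall, on chromosome 10 at 11514186 to 11514220, was at 53.5, 92.9, 93.3 and 89.2% in NT embryos 1 to 4, against 90.2, 95.7, 96.4 and 94.3% in fibroblasts 1 to 4, so its difference of -11.9 points rests mainly on NT embryo 1. It was also the copy with the highest fibroblast mean, 94.1% ± 2.80. The third, on chromosome 8 at 38134708 to 38134742, was at 70.6 and 58.6% in the BDF1-CAST NT embryos and 90.6 and 93.2% in the X1 NT embryos, against 84.6 to 91.5% in fibroblasts. It had no other listed CpG for 17643 bp before place 1.

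Copies that were higher in NT embryos were named by the same rule. The largest rise, on chromosome 7 at 72864342 to 72864376, was at 93.4, 89.0, 94.3 and 96.9% in NT embryos 1 to 4, against 89.1, 80.8, 78.7 and 81.6% in fibroblasts 1 to 4. The lowest NT embryo lay just under the highest fibroblast sample. The next were on chromosome X at 94799865 (94.5% ± 2.13 in NT embryos, 84.8% ± 7.11 in fibroblasts) and on chromosome 14 at 36019132 (91.3% ± 8.35 in NT embryos, 82.1% ± 3.97 in fibroblasts). All 3 had a CpG 21 bp before place 1, as did 72.3% of all runs, so this does not set them apart. The largest strain difference, on chromosome 3 at 29929484 to 29929518, was 15.4 points, with 94.2% ± 3.04 in X1 and 78.8% ± 6.84 in BDF1-CAST. It was followed by the copy on chromosome 8 named above and by chromosome 19 at 22002948, with 93.2% ± 4.51 in X1 and 81.0% ± 10.7 in BDF1-CAST. The other copies of highest fibroblast level were on chromosome 2 at 44791845 (96.5% ± 2.40 in NT embryos, 94.0% ± 1.49 in fibroblasts) and on chromosome 1 at 119150686 (85.4% ± 6.38 in NT embryos, 93.8% ± 2.97 in fibroblasts). The lowest were 3 of the 9 runs near 0, on chromosomes 10, 11 and 19, at 0 to 0.291% in NT embryos and 0 to 0.282% in fibroblasts.

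Stretches that keep the outer CpGs but lack 1 of the 3 inner ones were compared with the full runs. With at least 10 calls in each sample, 58 lacked place 2, 55 lacked place 3 and 101 lacked place 4, and the missing CpG was seen in 0 of them in any file. Only 9, 12 and 9 of these had the CpGs at 24 and 21 bp. In that order they averaged 89.2, 87.9 and 91.2% in NT embryos and 87.5, 86.9 and 91.4% in fibroblasts. The stretches without the pair averaged 52.9, 55.4 and 62.3% in NT embryos and 51.5, 54.8 and 63.0% in fibroblasts. Among the full runs at 50% or more in fibroblasts, the 879 with the pair averaged 88.8% in NT embryos and 88.5% in fibroblasts, and the 339 without it 88.6% in NT embryos and 88.2% in fibroblasts. The stretches that lack a CpG were not filtered by level. With no such filter, the 348 full runs without the pair averaged 86.4% in NT embryos and 86.0% in fibroblasts.

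Set beside the rest of the series, the runs differ from methylated windows in general by what the choice of the family fixed. The 310953 other windows at 80% or more in fibroblasts averaged 72.9% in NT embryos and 86.2% in fibroblasts, with a median difference of -9.57 points, and 23.3% of them were lower by 20 points or more. Windows as short as a run, at most 34 bp, were closer to it: 7444 of them averaged 82.1% in NT embryos and 88.6% in fibroblasts, with a median difference of -2.44 points, and 9.73% were lower by 20 points or more. Of the 1209 runs at 80% or more in fibroblasts, 0 were, with 88.8% in NT embryos and 88.5% in fibroblasts. Because the family was chosen for this, the gap is a description and no test of it is given.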

How the data were processed

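Per the labels' protocols, libraries were made from MspI-digested, size-selected, bisulfite-converted DNA. The authors deposited, for each of 9 libraries, counts of calls and of methylated calls per CpG on build mm9, which the submitters' processing notes name. Aligner, caller and handling of multiply matching reads: not given in the sources used here. A level is methylated calls over all calls, in percent. Every run counted equally in a mean.

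The spacing, its members and the tests were chosen with earlier results of these data known. Exact permutation tests used Python 3.11.15. All windows of 5 neighbouring CpGs with at least 10 calls in each of 8 samples were fitted by a quasi-binomial model with stage and strain as terms, a dispersion of at least 1 moderated with limma (3.58.1, R 4.3.3), an F test and Benjamini-Hochberg adjustment over all windows. It was tested on simulated data. Calls needed at least 20 points and an adjusted p under 0.05. Named copies, with 30 or more calls in each sample, are the 3 highest and 3 lowest in fibroblasts, the 3 largest falls, rises and strain differences. The deposited tile table was not used.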

Additional observations from a re-analysis of the deposited data

Results flagged for a closer look

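In 6 of the 8 levels examined (all runs, the 5 places, runs on X and runs on autosomes), both BDF1-CAST pairs were lower and both X1 pairs higher in the NT embryo than in the same-numbered fibroblasts. Over all runs the difference was 2.83 points in X1 and -2.14 points in BDF1-CAST, 4.97 points apart (exact permutation p = 0.333, the smallest possible). The other cases were not tested. Place 2 differed by 3.21 points in X1 and -1.37 points in BDF1-CAST, 4.58 points apart. Place 3 differed by 2.29 points in X1 and -3.996 points in BDF1-CAST, 6.28 points apart. Place 5 differed by 2.69 points in X1 and -2.28 points in BDF1-CAST, 4.96 points apart. Runs on X differed by 2.92 points in X1 and -2.32 points in BDF1-CAST, 5.24 points apart, and runs on autosomes by 2.82 points in X1 and -2.11 points in BDF1-CAST, 4.92 points apart. The levels overlap in their CpGs and are not separate cases. No sample stood outside its group of 4 in any of these levels or in place 1 minus place 4.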

How the results depend on the processing

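The differences of places 1, 3, 4 and 5, the strain difference and the stage by strain difference kept their direction in every alternative run, and the differences of places 1, 3, 4 and 5 kept their call in all but the replicate block. Leaving out single samples gave 5.67 to 6.18 points for place 1, 2.31 to 2.81 for place 3, -8.55 to -7.66 for place 4 and -0.466 to -0.358 for place 5. Place 2 turned sign, from -0.0563 to 0.127 points. With the replicate block, same-numbered samples averaged, 4 units cannot give a p under 0.125, and place 1 (5.90 points), place 3 (2.67), place 4 (-8.17), place 5 (-0.425) and X minus autosomes (0.770) no longer passed the threshold (exact sign-flip permutation). The numbers share a strain and are not stated to pair samples: deviations of same-numbered samples from the stage means correlated at 0.149, 0.173, 0.254 and 0.0638 over all windows, and NT embryos 1 and 4 correlated better with another number. Mirrored minus forward runs passed the threshold without fibroblast replicate 2 (range without single samples -0.304 to -0.0950) and, chosen after seeing the data, with each joined place weighted equally (-0.500 points, exact permutation p = 0.0312). Without the runs near 0, also chosen after seeing the data, mirrored minus forward runs differed by -0.101 points (exact permutation p = 0.602). X minus autosomes was 0.0241 points without the runs near 0. The stage difference ran from -0.514 to 1.14 points without single samples. Windows called between strains numbered 95 without the stage term, 13 among windows spanning at most 200 bp (chosen after seeing the data), 0 without library 1a and 0 without each single sample. Windows called between stages numbered 173415 with no minimum difference, 0 in the replicate block fit, 6659 among windows spanning at most 200 bp, and 0 (without fibroblast replicate 1) to 124290 without single samples. No run was called in any of these fits, except 2 between stages with no minimum difference. Depth limits single copies: the median run had 75 to 114 calls in an NT embryo and 100 to 214 in a fibroblast sample. The cause of these changes was not tested.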
